A study of Rattus norvegicus with 18 samples.

Results

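Neutrophil and antimicrobial genes were followed in the aging rat eye. The group was a fixed list of 10 genes, taken by symbol, out of 32285 genes measured in neural retina and 32552 in RPE/choroid, the retinal pigment epithelium with the vascular layer behind it. All 10 were found in retina and 9 in RPE/choroid, where no row is named Mpo and that gene was dropped. Bulk RNA-Seq came from wild-type female Fischer344 rats in 3 groups with 3 libraries each per tissue, 18 libraries in total. Young rats were untreated and 4 months old. Aged rats were 24 months old and drank plain water, and treated aged rats of the same age had received 8-AG (8-aminoguanine, an inhibitor of purine nucleoside phosphorylase) in their water at 5 mg/kg per day for 8 weeks from 22 months of age.

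Neutrophils are short-lived white blood cells that kill microbes with proteins stored in granules. S100a8 and S100a9 encode the subunits of calprotectin, a metal-binding protein that fills the neutrophil cytosol. Camp encodes cathelicidin, Ngp neutrophilic granule protein, Lcn2 the iron-siderophore trap lipocalin-2, and Mpo the peroxidase of the primary granules. Slpi, a protease inhibitor, and Reg3g, a lectin that kills Gram-positive bacteria, are secreted by epithelia. Chi3l1 encodes a chitinase-like glycoprotein of macrophages and reactive glia, and Ubd encodes the ubiquitin-like modifier FAT10, which is induced by interferon gamma and tumor necrosis factor. Lcn2, S100a8, S100a9 and Chi3l1 are not specific to neutrophils. The library content was read from 11 neutrophil markers, of which 5 (S100a8, S100a9, Ngp, Camp and Mpo) are members and so no independent check of the list. Among the 11, Elane was at 0 in all 9 retina libraries and Mpo gave 1 read in each of aged retina 1, aged retina 3 and treated retina 3 and none in the other 6. In bulk tissue, fewer cells of a type and less RNA per cell cannot be told apart.

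Total counts ran from 12283458 to 15644346 per retina library and from 28573828 to 48203050 per RPE/choroid library. The 3 treated retina libraries are labelled as total RNA and the other 15 libraries as polyA RNA, so this label and treatment cannot be told apart in retina. Among the RPE/choroid libraries, treated library 1 had a summed level of rod photoreceptor markers of 54707 CPM (read counts scaled to a common library size), against 620 to 19860 in the other 8. Its RPE markers summed to 5948 CPM against 9611 to 18497, its choroid and endothelial markers to 665 against 3548 to 7986, and its macrophage markers to 443 against 1197 to 2310. Treated library 3 was the highest of the 9 for 6 of the 7 neutrophil markers found, which summed to 76.8 CPM there and to 5.99 to 32.3 CPM in the others. Of these 7, 4 are members. The 3 that are not (Csf3r, Cxcr2 and Mmp8) summed to 12.8 CPM there and to 1.73 to 5.13 CPM in the others. Members whose treated values differed most among libraries are given with and without these libraries.

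**Figure D1:**
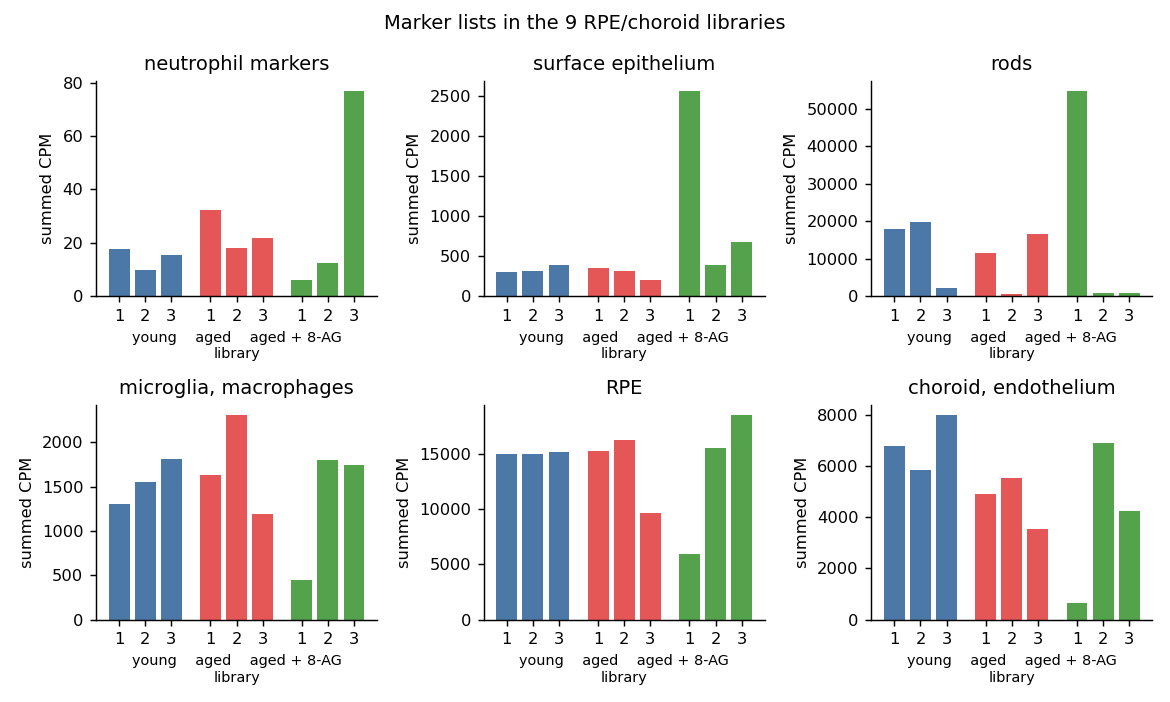
Summed CPM of 6 marker lists (y axes, linear from 0) in each of the 9 RPE/choroid libraries (x axes, libraries 1 to 3 of each group). Treated library 3 had the highest neutrophil bar, 76.8 CPM (4 of its 7 markers are members), and treated library 1 the highest rod bar, 54707 CPM, with the lowest RPE bar, 5948 CPM.

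Promoters are shown for 5 members on which the results below turn, because these genes differed in which libraries they were high. Of the 10 members, 8 had an entry in RefSeq (GRCr8), and S100a8 and Slpi are named only. The sequences are the 250 bases before the annotated start, 5′ to 3′ on the gene's strand. Capitals mark matches to a TATA box (TATAAA, gene strand only), a C/EBP core (TTNNGNAA), a STAT site (TTCNNNGAA), an NF-kB site (GGNNTTTCC) or an interferon-stimulated response element (GAAANNGAA), the last 4 on both strands.
S100a9, chr2:178490623-178490872, strand minus: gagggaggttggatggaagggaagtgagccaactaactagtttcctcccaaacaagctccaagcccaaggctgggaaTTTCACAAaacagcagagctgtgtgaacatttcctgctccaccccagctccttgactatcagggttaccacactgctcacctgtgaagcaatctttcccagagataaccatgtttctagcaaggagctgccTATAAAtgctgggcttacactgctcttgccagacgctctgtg
Ngp, chr8:119272355-119272604, strand plus: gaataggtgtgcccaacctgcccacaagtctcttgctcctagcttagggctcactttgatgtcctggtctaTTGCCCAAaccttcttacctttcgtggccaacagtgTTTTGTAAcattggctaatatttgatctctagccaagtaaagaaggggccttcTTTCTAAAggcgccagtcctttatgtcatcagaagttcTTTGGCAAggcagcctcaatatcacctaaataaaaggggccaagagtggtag
Lcn2, chr3:36081781-36082030, strand minus: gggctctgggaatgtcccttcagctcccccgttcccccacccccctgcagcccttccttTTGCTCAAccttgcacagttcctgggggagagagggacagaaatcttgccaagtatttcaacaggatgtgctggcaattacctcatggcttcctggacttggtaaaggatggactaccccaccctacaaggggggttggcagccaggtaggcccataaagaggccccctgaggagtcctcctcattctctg
Chi3l1, chr13:48193589-48193838, strand plus: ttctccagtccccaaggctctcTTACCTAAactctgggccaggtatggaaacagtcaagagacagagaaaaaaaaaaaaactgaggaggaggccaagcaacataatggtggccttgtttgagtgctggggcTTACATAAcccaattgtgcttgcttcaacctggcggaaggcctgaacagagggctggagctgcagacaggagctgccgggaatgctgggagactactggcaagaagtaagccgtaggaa
Ubd, chr20:1392686-1392935, strand minus: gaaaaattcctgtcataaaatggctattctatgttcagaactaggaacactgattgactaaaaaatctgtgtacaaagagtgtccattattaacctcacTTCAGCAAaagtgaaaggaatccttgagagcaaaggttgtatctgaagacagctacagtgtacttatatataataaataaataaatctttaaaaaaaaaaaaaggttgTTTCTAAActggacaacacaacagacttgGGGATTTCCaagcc
S100a9 held a TATA box 42 to 37 bases before the start and 1 C/EBP match at 173 to 166. Ngp held 4 C/EBP matches, Chi3l1 and Ubd 2 each, and Lcn2 1. The NF-kB match GGGATTTCC, 14 to 6 bases before the start of Ubd, was the only one among the 8 promoters, and 5.19% of 33469 rat promoters held such a match. The C/EBP letters stood in 37.2% of all promoters, the TATA box in 8.06%, the STAT letters in 7.67% and the interferon response letters in 8.12%. No STAT or interferon response match stood in the 8 windows. A match is a description of letters and not a binding site. S100a8 and S100a9 were direct neighbours on chromosome 2, and Camp and Ngp stood on chromosome 8 with 11 annotated genes between them.

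In aged retina, Chi3l1 and Lcn2 rose and Ngp fell, while most of the other members were at the limit of detection. To test aging, each gene was compared between aged and young retina with edgeR's quasi-likelihood test, and was called where the fold exceeded 1.5 and the unadjusted P was under 0.05. Only 3 members passed the expression filter, and all 3 were called, 2 higher and 1 lower, against 8.84% of 14588 genes called in either direction (6.45% higher and 2.39% lower). A gene with enough reads in 1 group alone can pass this filter, which favours calls among low genes. Lcn2 had 4 to 9 reads per young and 13 to 32 per aged library, and Ngp 20 to 26 and 10 to 16. Without the filter, 4 of 8 members were called, beside 1215 genes called higher and 424 lower of 20991. The median log2 fold change was 1.67 over the 3 members and 0.0019 over all genes tested. Rod photoreceptor markers fell in the same comparison, with 13 of 13 log2 fold changes below 0 and 8 called lower (median -0.60). They summed to 57449 to 62655 CPM in young and 36270 to 41142 CPM in aged retina. Their part in the members' values was not tested.

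Chi3l1 was at 67.6, 54 and 59.3 CPM in the young retina libraries, 271, 418 and 283 CPM in the aged and 361, 322 and 270 CPM in the treated. The young libraries lay below all others, and the aged and treated libraries overlapped. Aged exceeded young by a log2 fold change of 2.43 (SE 0.21, adjusted p = 0.0019), with means of 324 ± 81.9 and 60.3 ± 6.82 CPM (SD, n = 3). Treated aged retina also exceeded young retina, by 2.40 (SE 0.13, adjusted p = 5.4e-05). In that comparison the same 3 members passed the filter and were called, against 8.58% of 14542 genes. The filter bears on this count in the same way.

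Lcn2 was at 0.693, 0.525 and 0.272 CPM in young retina, 1.79, 2.04 and 0.900 CPM in aged and 1.92, 2.36 and 1.74 CPM in treated retina. These values came from 4 to 9 reads per young library and 13 to 32 per aged or treated library. The young libraries again lay below the other 6. The log2 fold change was 1.67 for aged against young (SE 0.45, adjusted p = 0.035) and 2.01 for treated against young (SE 0.37, adjusted p = 0.0069).

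Ngp went the other way. Its values were 1.62, 1.5 and 1.77 CPM in young, 0.776, 0.638 and 1.11 CPM in aged and 0.845, 1.14 and 0.468 CPM in treated retina. Young retina was above both older groups with no overlap, and aged and young libraries did not overlap, in either direction, for 35.3% of genes. The log2 fold change was -0.95 for aged against young (SE 0.31, adjusted p = 0.072) and -1.0 for treated against young (SE 0.36, adjusted p = 0.089). Both calls were lost with DESeq2 (-0.96 and -1.0). The aging call was also lost without aged library 2 (log2 fold change -0.77), and the call of treated against young without young library 3 (-0.94) or treated library 3 (-0.71).

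**Figure D2:**
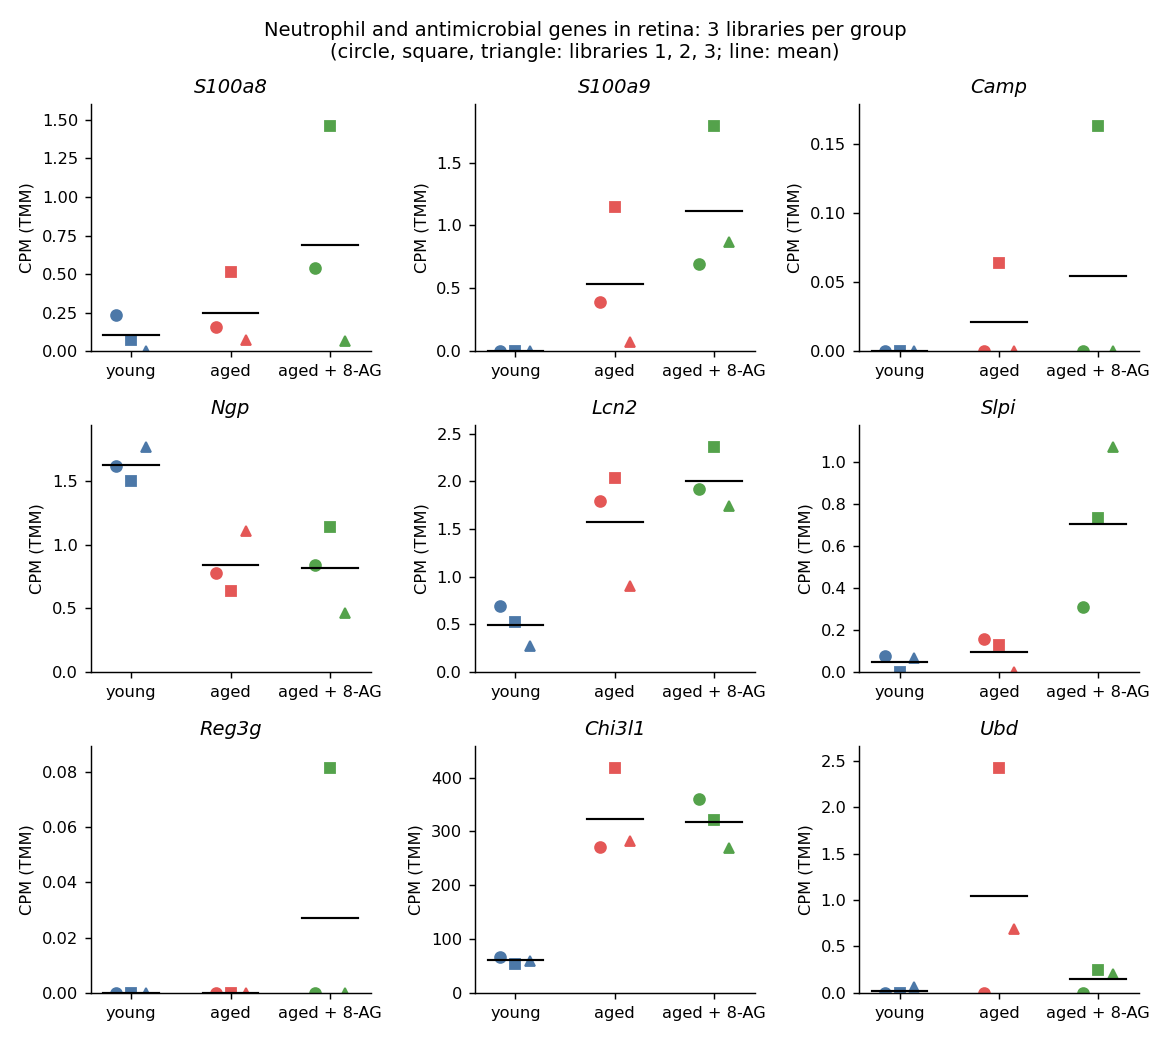
CPM of 9 members in retina (y axes, linear from 0, own scale per gene) for the young, aged and treated aged groups (x axes), with 1 point per library and a line at the mean. For Chi3l1 the 3 young points lie at 54 to 67.6 CPM and the 6 older points at 270 to 418 CPM, and for Ngp the young points lie above the older ones.

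S100a9 gave no read in any young retina library. It gave 5, 18 and 1 reads in the aged and 9, 22 and 13 in the treated libraries, so every older library was above every young one. With a floor of 3 counts over the young group, S100a9 was at least 7.3-fold higher in aged and at least 15.2-fold higher in treated retina. Without aged library 2, which held 18 of the 24 aged reads, the bound for aged retina was 3.12-fold, and without treated library 2 that for treated retina was 10.6-fold. With 1 young library left out, the same floor spread over fewer libraries gave 4.69-fold to 4.99-fold and 9.79-fold to 10.4-fold. It did not pass the filter in either comparison. Without a filter it met the call rule for aged against young (adjusted p = 0.065), though not when aged library 1 was left out, and for treated against young (adjusted p = 0.00027).

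The 7 neutrophil markers found, which include S100a8, S100a9, Ngp and Camp, summed to 2.1 to 2.77 CPM in young, 2.42 to 5.55 CPM in aged and 3.68 to 8.21 CPM in treated retina. Most of the young sum was Ngp, at 1.5 to 1.77 CPM, which was lower in both older groups. Without those 4 members the markers summed to 0.34 to 0.925, 1.18 to 3.19 and 2.27 to 3.66 CPM. Erythrocyte markers summed to 23.9 to 41.9 CPM in young, 76.8 to 368 CPM in aged and 53 to 127 CPM in treated retina, with every older library above every young one. The part of blood in the S100a9 values was not tested. S100a8 gave 3, 1 and 0 reads in young, 2, 8 and 1 in aged and 7, 18 and 1 in treated retina, and all groups overlapped. Camp gave 1 read in aged library 2 and 2 reads in treated library 2 and none elsewhere, and Reg3g gave 1 read in treated library 2 only. No fold is given for Camp and Reg3g, whose groups were all at or under 3 counts.

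Ubd was uneven in aged retina. It gave 0, 0 and 1 reads in young, 0, 38 and 10 in aged and 0, 3 and 3 in treated retina. The ratio of aged to young was 45.8 by total reads, with an exact 95% interval of 7.83 to 1845 that covers counting error only. The groups overlapped, because aged library 1 had no read, and the unfiltered test did not meet the call rule with all libraries (adjusted p = 0.24). With all libraries it did under DESeq2, all 3 groups in 1 fit, the replicate block and robust=FALSE. It also did without aged library 1 and without aged library 2, which held 38 of the 48 reads. Treated retina held 6 reads against these 48, and the unfiltered test did not meet the call rule, though it did with DESeq2, the replicate block, robust=FALSE or without aged library 1. Interferon-stimulated genes, which share inducers with Ubd, summed to 58.6 to 67.4 CPM in young, 226 to 361 CPM in aged and 213 to 234 CPM in treated retina. Of the 14 tested, 13 were called higher with age (median log2 fold change 2.64), and 2 were called lower in treated against aged retina (median -0.43).

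Most of the tested genes of a broader neutrophil list rose in aged retina. Of 36 neutrophil granule and cell genes, 25 were found and 10 passed the filter in aged against young retina, where 9 rose and none fell. Their median log2 fold change was 1.86. Named by smallest P, these were Itgam (2.27), Cybb (1.87), Lyz2 (1.78) and Ncf1 (1.85), which microglia and macrophages also use. Csf3r, the receptor gene for granulocyte colony-stimulating factor and one of the 11 neutrophil markers, rose as well. The only other marker of the 11 that passed the filter was Ngp, which fell. Csf3r was at 0.848, 0.45 and 0.34 CPM in young, 2.33, 2.87 and 1.11 CPM in aged and 3, 2.76 and 2.14 CPM in treated retina. Its young libraries lay below the other 6, and the aging change was 1.95 (SE 0.46, adjusted p = 0.02). It gave 11, 6 and 5 reads in young and 30, 45 and 16 in aged libraries. A gene with enough reads in aged retina alone could pass the filter, which favours a rise among the 10 genes tested. The 12 microglia and macrophage markers summed to 38.1 to 41.1 CPM in young, 117 to 203 CPM in aged and 134 to 139 CPM in treated retina. The part of these cells or of neutrophils in the rise of Chi3l1 and Lcn2 was not tested. By contrast, 11 genes of this list named only in the retina table never exceeded 0.325 CPM, and 5 of them (Bpi, Ctsg, Cxcr1, Elane and Np4) were at 0 in all 9 libraries.

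Receptors and regulators of the members rose in part. Of 25 listed genes, 22 were tested and 12 rose with age in retina, with a median of 0.78, among them Socs3, the feedback inhibitor of STAT3 (log2 fold change 3.75), Stat3 itself (1.08), the C/EBP factor Cebpd (2.35) and the oncostatin M receptor Osmr (2.75). Of 13 reactive astrocyte and Müller glia genes, 10 were tested and 7 rose, led by Cp, Hspb1, Cxcl10 and Osmr. Among 30 epithelial and secreted antimicrobial genes, 8 were tested, 5 rose and 1 fell, and those named by their P were Plac8 (3.02), Rnase4 (1.75), Lyz2 and the whey-acidic-protein family member Wfdc2 (2.33). Of the cytokines that attract or expand neutrophils, 4 of 13 were found, and the only one tested in retina was not called.

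In treated against untreated aged retina, none of the 4 members tested was called, against 0.957% of 14631 genes. The median log2 fold change over the 4 members was 0.16, beside -0.0031 over all genes. This comparison shares its aged libraries with the comparison to young retina. Chi3l1 gave -0.03 (SE 0.19), Lcn2 0.34 (SE 0.34), Ngp -0.06 (SE 0.42) and S100a9 1.0 (SE 0.72). All 4 had an adjusted p of 1.0, and DESeq2, which gave a value for 9 members, called 2, Slpi and Ubd. The S100a9 value was 2.28 and called without aged library 2, which alone held 18 of the 24 reads of its group. By unadjusted P under 0.05, 537 genes passed in this comparison.

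Slpi was the member that separated treated from untreated aged retina. It gave 1, 0 and 1 reads in young, 2, 2 and 0 in aged and 4, 9 and 16 in treated libraries. All 3 treated libraries were above the other 6, and 4.39% of genes tested had all treated above all aged libraries. Its mean level was 7.46-fold that of aged retina, and the unfiltered test gave a log2 fold change of 2.81 (SE 0.78, adjusted p = 0.69). Against young retina the unfiltered value was 3.63 (SE 0.85, adjusted p = 0.0075). Surface epithelium markers summed to 61.3 to 180 CPM in the treated libraries, 30.5 to 32.8 CPM in the aged and 38.8 to 87.1 CPM in the young, with 8 of 12 tested markers called higher in treated against aged. Muc4, a mucin of that list and of the antimicrobial list, rose by 4.05 (adjusted p = 0.034). All 10 RPE markers had a log2 fold change above 0 in treated against aged retina (median 0.65, none called) and summed to 469 to 644 CPM against 322 to 523 CPM. Slpi was at 26.4 to 167 CPM in RPE/choroid. The part of surface epithelium or of RPE/choroid in the Slpi difference was not tested.

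In RPE/choroid, 5 of 8 tested members were called higher in aged than in young rats. All 8 tested members had a log2 fold change above 0, with a median of 1.17 against 0.018 over all genes, and those called higher were S100a8, S100a9, Camp, Chi3l1 and Ubd, against 0.717% of 16047 genes called higher. With all 3 groups in 1 fit, 2 of the 5 were still called, Chi3l1 and Ubd, and S100a8 (1.14), S100a9 (0.88) and Camp (1.21) were not. None had an adjusted p under 0.05 (all 1.0), as for every gene of this comparison, while 341 genes had an unadjusted P under 0.05. Of 9 choroid and endothelium markers, 8 had a log2 fold change below 0 and 2 were called lower (median -0.33), with sums of 5857 to 7986 CPM in young and 3548 to 5529 CPM in aged libraries. All 13 rod markers also lay below 0, none called (median -0.52). Their sums overlapped, at 2000 to 19860 CPM in young and 620 to 16593 CPM in aged libraries. The part of either cell type in the members' values was not tested. Of the 8 members, 6 had groups that did not overlap with aged higher, against 2.72% of genes. S100a8, S100a9, Camp, Reg3g, Chi3l1 and Ubd are genes that the study named as higher with age from these same libraries. Neither their direction nor the counts, median and shares given here are thus independent evidence.

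S100a9 was at 9.43, 5.69 and 8.22 CPM in young and 19.7, 10.1 and 12.9 CPM in aged RPE/choroid. Every aged library was above every young one, by a log2 fold change of 0.87 (SE 0.33). S100a8 gave 2.41, 1.32 and 1.79 CPM in young and 5.20, 2.84 and 4.10 CPM in aged libraries, again without overlap, with a change of 1.14 (SE 0.37). Both genes kept the same order among libraries, with young library 2 lowest and aged library 1 highest of these 6. Neither call held in every fit with 1 library left out, though the change was not smaller in all of these. S100a9 was no longer called without young library 2 (0.68), young library 3 (0.90), aged library 1 (0.55) or aged library 3 (0.95). S100a8 was no longer called without young library 2 (0.94), young library 3 (1.1) or aged library 1 (0.90).

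Camp was at 0.635, 0.675 and 0.442 CPM in young and 1.55, 1.62 and 0.873 CPM in aged RPE/choroid. The groups did not overlap, and the log2 fold change was 1.21 (SE 0.40). The call was lost when any library but aged 3 was left out, with values of 1.27, 1.32 and 1.02 without young 1, 2 and 3 and of 1.09 and 1.05 without aged 1 and 2. Ngp was at 0.435, 0.270 and 0 CPM in young and 0.807, 0.502 and 0.537 CPM in aged libraries. Its aged libraries were all above the young ones but it was not called (1.43, SE 1.1).

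Ubd and Chi3l1 kept their calls whichever library was left out, and Chi3l1 lost its call with the replicate block (2.0). Ubd was at 3.94, 5.96 and 5.99 CPM in young, 18.3, 8.69 and 16.6 CPM in aged and 6.42, 4.87 and 4.34 CPM in treated RPE/choroid. The aged libraries were above all other libraries. The aging change was 1.45 (SE 0.35), from 1.24 to 1.71 with 1 library left out. In RPE/choroid the interferon-stimulated genes summed to 797 to 1440 CPM in young, 953 to 1371 in aged and 1238 to 1706 in treated libraries, and 0 of 14 were called with age.

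Chi3l1 was at 59.9, 58.7 and 24.6 CPM in young, 139, 104 and 474 CPM in aged and 322, 48.5 and 86.6 CPM in treated RPE/choroid. Every aged library was above every young one, and the aging change was 2.31 (SE 0.69). Without aged library 3 it was 1.35, still called. The highest values, in aged library 3 and treated library 1, came with rod marker sums of 16593 and 54707 CPM. Young libraries 1 and 2 had rod marker sums of 17920 and 19860 CPM. In retina itself Chi3l1 was at 54 to 67.6 CPM in young and 270 to 418 CPM in aged and treated libraries. The part of retina carried over in the difference was not tested. Gfap, a glial filament gene, was also called higher with age there (4.21, SE 0.91).

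Reg3g gave 2, 1 and 0 reads in young, 4, 50 and 31 in aged and 0, 4 and 10 in treated RPE/choroid. Aged libraries 2 and 3 held nearly all reads of their group, and aged library 1 was only just above young library 1. The ratio of aged to young was 34.3 by total reads (exact 95% interval 11.3 to 169.6, counting error only), and the unfiltered test met the call rule (adjusted p = 1.0), whichever library was left out, though not with the replicate block. Lcn2 was at 0.869, 0.783 and 0.400 CPM in young and 0.839, 0.325 and 2.65 CPM in aged libraries, which overlapped (0.89, SE 0.79, and -0.22 without aged library 3). Slpi was at 61.6, 63.9 and 96.8 CPM in young and 59.8, 167 and 99.3 CPM in aged libraries and also overlapped (0.55, SE 0.40).

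**Figure D3:**
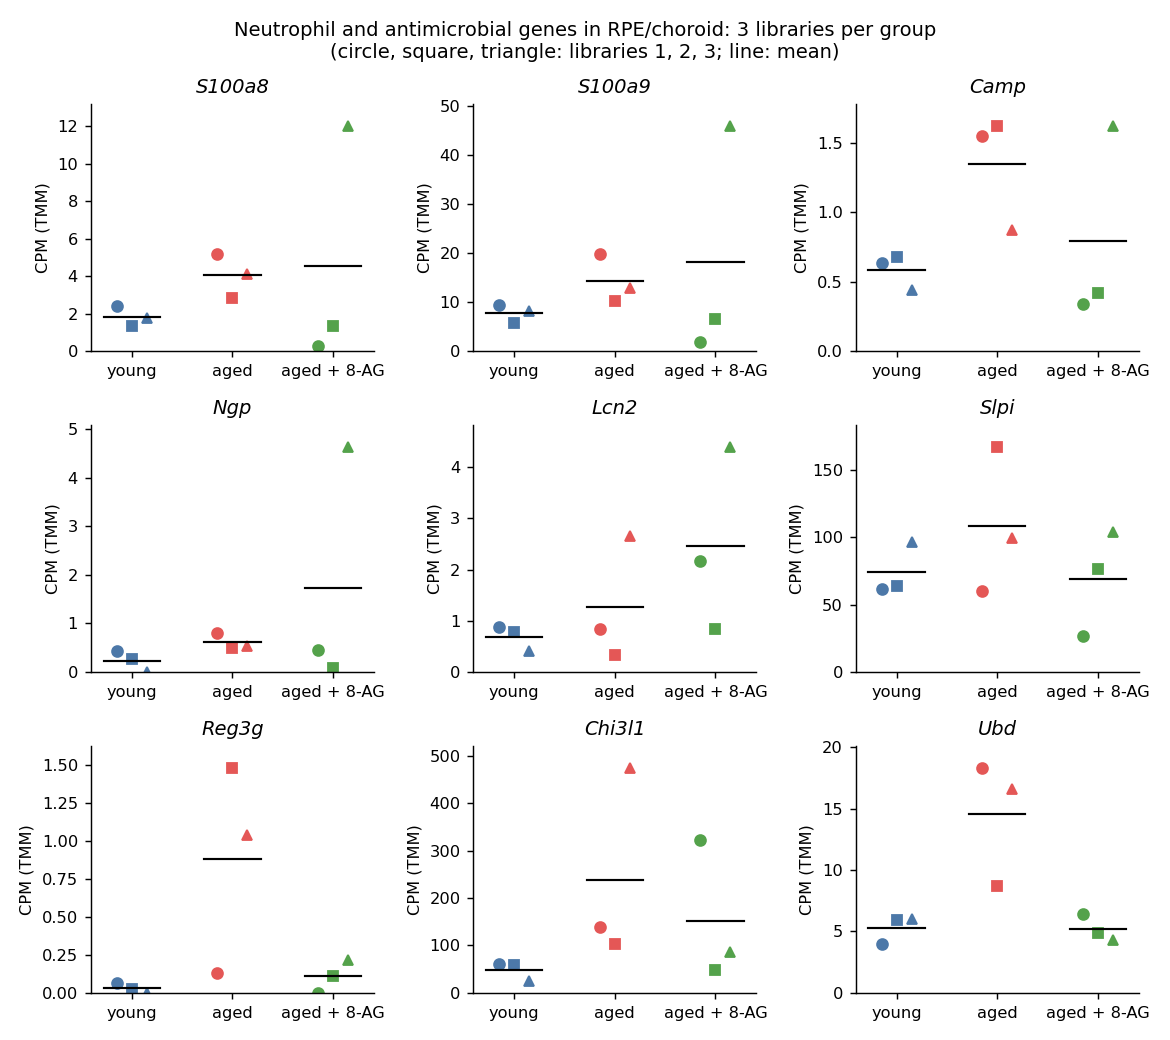
CPM of 9 members in RPE/choroid (y axes, linear from 0, own scale per gene) for the young, aged and treated aged groups (x axes), with 1 point per library and a line at the mean. Ubd is at 8.69 to 18.3 CPM in aged and at 3.94 to 6.42 CPM in the other libraries, and treated library 3 (triangle) is the highest point for S100a8, S100a9, Ngp and Lcn2.

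Few of the surrounding genes were called with age in RPE/choroid. Of the neutrophil granule and cell list, 22 were tested with age and 0 were called by edgeR, also at an adjusted p under 0.05 (median 0.06). The chemokines Cxcl1 (1.26, SE 0.32) and Cxcl6 (1.19, SE 0.47), which draw neutrophils through Cxcr2, were called higher among 4 cytokines tested. Of 9 antimicrobial genes tested, the scavenger receptor gene Dmbt1 (0.82, SE 0.17) and the skin chemokine gene Ccl27 (1.28, SE 0.49) were called higher. Among 24 receptors and regulators, only Lifr was called, lower by a log2 value of -0.73 (SE 0.21). Erythrocyte markers summed to 236 to 3295 CPM in young and 158 to 220 CPM in aged libraries, and 3 of 5 were called lower. The part of blood in the members' values was not tested.

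With 8-AG, 1 of 8 tested members was called in RPE/choroid. Ubd fell, with a mean of 5.21 ± 1.08 CPM against 14.5 ± 5.12 CPM in untreated aged rats (SD, n = 3). The log2 fold change was -1.45 (SE 0.40, adjusted p = 1.0). Genes called lower made up 0.418% of 16257 genes (68 genes, from 18 without aged library 2 to 286 without treated library 1), and 1.66% had all treated below all aged libraries. The call held whichever library was left out (-1.71 to -1.26), treated libraries 1 and 3 included, and was lost with both of these left out (-1.58). Against young RPE/choroid the treated libraries gave -0.01 (SE 0.33). Both values use the same treated libraries, and the aging change uses the same aged libraries as the treatment change. Of 14 interferon-stimulated genes, 8 were called higher and 0 lower in treated against aged RPE/choroid, where Ubd fell.

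The calprotectin and granule genes were spread widely among treated RPE/choroid libraries. S100a9 was at 1.93, 6.54 and 45.8 CPM, S100a8 at 0.275, 1.36 and 12.0 CPM, Ngp at 0.459, 0.0834 and 4.63 CPM, and Camp at 0.336, 0.417 and 1.62 CPM. Treated libraries 1 and 2 were below every aged library for these 4 genes, and treated library 3 was above every aged library for S100a9, S100a8 and Ngp and level with the highest for Camp. As a group, the changes against aged were 0.35 for S100a9 (SE 1.09), 0.17 for S100a8 (SE 1.24), 1.49 for Ngp (SE 1.33) and -0.75 for Camp (SE 0.72). With the replicate block the first 3 turned direction, S100a9 to -0.66, S100a8 to -1.11 and Ngp to -0.046.

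Surface epithelium markers summed to 2554, 388 and 672 CPM in treated libraries 1 to 3 and 197 to 346 CPM in the aged, with 10 of 14 tested called higher (median 4.63). All 7 striated muscle markers had a log2 fold change above 0, none was called (median 4.15), and they summed to 50017 CPM in treated library 1. Below 0 were 11 of 12 microglia and macrophage markers (median -0.34) and 9 of 9 choroid and endothelium markers (median -0.33), none called. Above 0 were 13 of 13 rod markers (median 1.03, none called) and 5 of 5 erythrocyte markers (median 2.39, 1 called). Their part in the members' values was not tested.

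Without treated library 3 the direction turned for 3 of these genes. S100a8 gave -2.29, S100a9 -1.74 and Ngp -1.16, and Camp gave -1.82. With that library out, S100a8, Camp and Ubd were called, 3 members in all. Each was lower, and of all 16691 genes tested 200 were called higher and 30 lower. Without treated library 1 instead, S100a8 gave 0.72, S100a9 0.87, Ngp 1.93 and Camp -0.40, none of them called. Treated library 1, which remains in the fit without library 3, is the library rich in rod and poor in RPE, choroid and macrophage markers. With both left out, a fit chosen after seeing the data that assumes the lone treated library varies like the aged ones gave -1.57 for S100a8, -1.12 for S100a9, -2.83 for Ngp and -1.69 for Camp, and of these only Ngp was called.

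**Figure D4:**
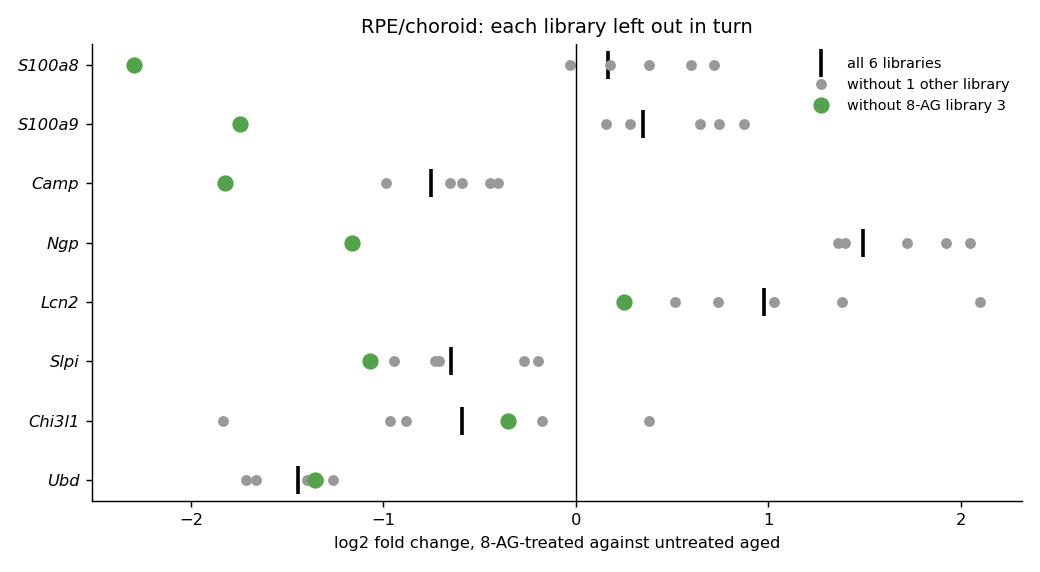
Log2 fold change of treated against untreated aged RPE/choroid (x axis) for the 8 members tested (y axis), with all 6 libraries (bars) and with each library left out in turn (points, green without treated library 3). Leaving out treated library 3 moved S100a8 from 0.17 to -2.29 and S100a9 from 0.35 to -1.74, whereas all values for Ubd stayed between -1.71 and -1.26.

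Treated library 3 was high for several members. Over the median of the other 8 libraries, S100a9 was 5.19-fold, S100a8 5.72-fold, Lcn2 5.24-fold and Ngp 10.4-fold, whereas Chi3l1 was 1.1-fold and Ubd 0.700-fold. Of 25 neutrophil granule and cell genes found, 11 were highest there. Gene symbols came from tables that the authors had limited to genes with over 60 reads in total. Of 23 genes that pass that limit without the reads of treated library 3, 9 were highest there, beside 12.9% of 16429 genes that pass it likewise. The genes highest there included Mmp8, the neutrophil collagenase (182 reads, 3.99 CPM, against 0.201 to 1.87 CPM elsewhere), the receptor genes Csf3r (7.63 CPM against 0.81 to 3.41) and Cxcr2 (1.16 against 0.0306 to 0.702), and Retnlg (2.15 against 0.122 to 1.09). Itgam, Cybb and Lyz2, which macrophages share, were not highest there, whereas Itgb2 and Cyba, shared as well, were. Also not highest there were Prtn3, Trem1, Il1r2, Pglyrp1, Hp, Gfi1, Alox5, Alox5ap, Itgal, Ncf1 and Ncf4 of the same list. Gfi1 was at 0.110 CPM there, against a median of 0.414 CPM in the other libraries. Its erythrocyte marker sum was 2346 CPM, against 158 to 220 CPM in aged libraries and 236 to 3295 CPM in young ones. The part of blood or of neutrophils in these values was not tested.

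S100a8 and S100a9 kept close to a fixed ratio. In 8 of 9 RPE/choroid libraries there were 3.14 to 4.80 reads of S100a9 per read of S100a8, including 3.81 in treated library 3. Treated library 1 gave 7.00, from 63 and 9 reads, and the Wilson 95% interval of its S100a9 share, 77.9% to 93.3%, overlapped those of the other libraries. Over the 9 libraries S100a9 correlated with S100a8 at a Pearson r of 0.994 on log2(CPM + 0.5), with Camp at 0.80, with Ngp at 0.73 and with Ubd at 0.16. The 5 other genes most like S100a9 were Ncapg (0.961), AC127076.2, Spen, Rwdd3 and Abca2, none of them a gene of the neutrophil list. These points share libraries, and treated libraries 1 and 3 span most of the range.

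The remaining members overlapped between treated and aged RPE/choroid. Lcn2 was at 2.17, 0.834 and 4.39 CPM in treated libraries (0.98 against aged, SE 0.96, and -0.61 without treated libraries 1 and 3) and Slpi at 26.4, 76.8 and 104 CPM (-0.65, SE 0.59). Chi3l1 gave -0.59 (SE 0.93), 0.38 without aged library 3 and -1.83 without treated library 1, and was called in none of these. Reg3g had 14 reads over the treated and 85 over the aged libraries, and did not meet the call rule in the unfiltered test, though it did without aged library 1, with the replicate block and with DESeq2. Against young RPE/choroid, Lcn2 was the only member of 8 tested that was called (1.86, SE 0.71, adjusted p = 1.0), against 1.71% of 16215 genes called higher. That call was lost when any library but treated 2 was left out (2.07, 1.99 and 1.61 without young 1, 2 and 3, and 1.95 and 1.16 without treated 1 and 3), and also with all 3 groups in 1 fit, with the replicate block and with libraries of a shared label number summed. In the same comparison, 11 of 15 tested surface epithelium markers were called higher (median 4.82) and all 7 striated muscle markers had a log2 fold change above 0 with none called (median 3.45). Their part in the Lcn2 difference was not tested.

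Lcn2 had different nearest genes in the tissues. Over the 9 retina libraries the gene most like it was Csf3r (r = 0.987), the receptor for granulocyte colony-stimulating factor, followed by Stap2, Nagk, Mtif3 and RGD1559575, and r was 0.90 with Chi3l1, 0.91 with S100a9 and -0.80 with Ngp. These retina points share the split between young and older libraries. Over the 9 RPE/choroid libraries the most like genes were Megf11 (0.981), Folr1, Lrrc8e, Calhm1 and Gip, and r with S100a9 was 0.32.

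**Figure D5:**
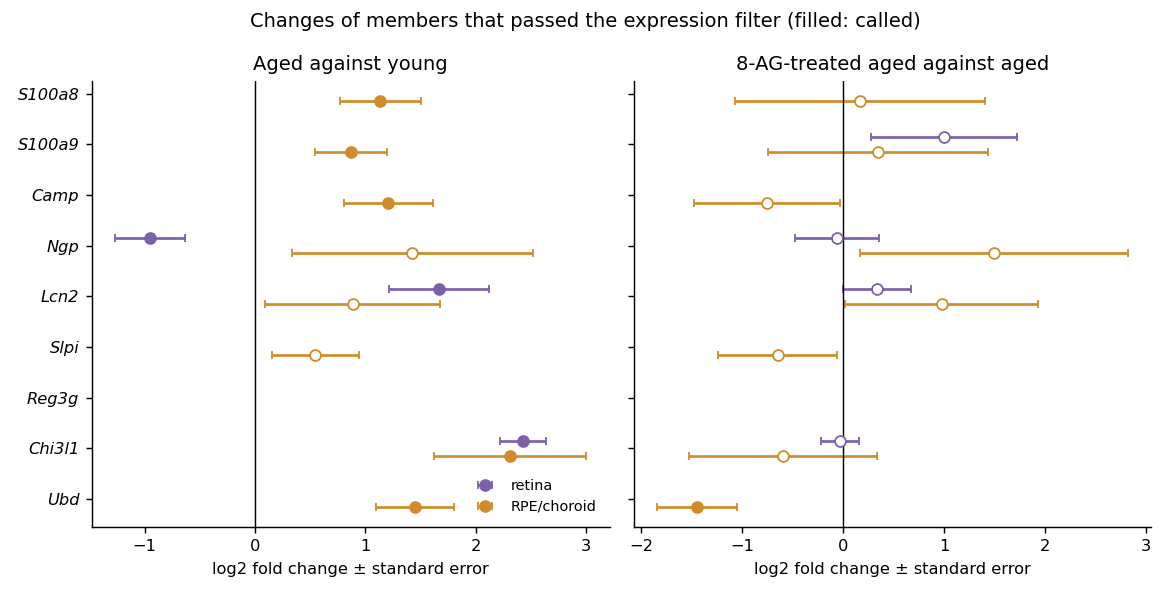
Log2 fold change with its standard error (x axes) of members that passed the expression filter (y axis), aged against young on the left and treated against untreated aged on the right, in retina and RPE/choroid. Filled points were called. With age, Ngp lies at -0.95 in retina and at 1.43 in RPE/choroid, and with treatment the only filled point is Ubd in RPE/choroid at -1.45.

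The aging and treatment changes were also set against each other across tissues with an interaction term. Of 8 members tested, S100a9 alone had an unadjusted P under 0.05 for the aging change (adjusted p = 0.40), where 8.25% of genes did. Ngp was lower with age in retina and higher in RPE/choroid, with groups that did not overlap in either tissue, and the difference between tissues was 2.38 (SE 1.12, adjusted p = 0.64). For the treatment change, Slpi alone passed (adjusted p = 1.0), where 2.44% of genes did. Only treated retina was labelled total RNA, so that label and this term cannot be told apart. For Chi3l1, called with age in both tissues, the difference was -0.13 (SE 0.74).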

How the data were processed

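Bulk RNA-Seq of 9 retina and 9 RPE/choroid libraries was read from the deposited tables. For retina, the authors' deposited RSEM expected counts (11.5% not whole) were rounded. For RPE/choroid, raw counts per gene were deposited, from libraries made by the authors with polyA selection and enrichment of full-length transcripts. The authors' TMM-normalized signal (CPM) for retina, as deposited, paired symbols with identifiers and gave Mpo, and the authors' RPE/choroid comparison tables, with size-factor-normalized signal, were read only for gene names. Their fold change and p-value columns hold the authors' own findings and were not used. The submitters' processing notes name Bowtie2 2.1.0, RSEM 1.2.15, edgeR and Rnor_6.0 without their roles. No per-sample column was left out (0).

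Each comparison used its own 6 libraries and all genes in edgeR 4.0.16 (R 4.3.3: filterByExpr, TMM, glmQLFit with robust=TRUE, glmQLFTest), with Benjamini-Hochberg adjustment over all genes tested. CPM values use TMM library sizes. The standard error is the absolute log2 fold change divided by the square root of F. The call rule (fold over 1.5, unadjusted P under 0.05) is the paper's. "No filter" values come from a fit of all genes with any count. The script was tested on simulated data. The interaction was fitted to 12 libraries of both tissues. An exact permutation test of 3 against 3 cannot go below 0.1 and was not used for calls.

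Members and lists were chosen with earlier results of these data known. All members are named, with up to 4 called genes of smallest P per list and the 5 genes most alike. Csf3r in retina and single genes of library 3 and of the neutrophil list at 0 were named after their values were seen. Labels do not say that libraries came from separate animals, and 2 young and 2 aged RPE/choroid libraries each share a label number followed by L or R, so p-values measure the spread between these samples, which may be technical. Alternatives were RLE factors, DESeq2 1.42.0, no filter, a mean CPM of at least 1, 1 fit of all 3 groups, a replicate block, robust=FALSE, unrounded counts, summed libraries of a shared label number, limma 3.58.1 for the interaction, and leaving out each library, or treated RPE/choroid libraries 1 and 3 together. Figures used Python 3.11.15, pandas 2.3.3, SciPy 1.17.1 and matplotlib 3.10.9. Intervals cover counting error only.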

Additional observations from a re-analysis of the deposited data

Results flagged for a closer look

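The aging change of S100a9 differed between tissues, by -5.83 (SE 1.95, adjusted p = 0.40) as the log2 change in RPE/choroid minus that in retina. Young retina had no S100a9 read, so the size of this value depends on the prior count of the fit and is no bound. With limma's voomWithQualityWeights the difference was -1.15 and did not reach an unadjusted P under 0.05. S100a9 was higher in the aged libraries in both tissues.

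The aging change of Ngp went in opposite directions, lower in all 3 aged retina libraries than in all 3 young ones and higher in all 3 aged RPE/choroid libraries than in all 3 young ones. The difference was 2.38 (SE 1.12, adjusted p = 0.64), short of an unadjusted P under 0.05, and 2.43 with limma's voomWithQualityWeights, where it passed. It also passed without young RPE/choroid library 1 (3.15) or 3 (1.75). The Ngp values rest on 10 to 26 reads per young or aged retina library. In RPE/choroid they rest on 13, 10 and 0 reads in young and 25, 17 and 16 in aged libraries, where Ngp was not called.

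The 8-AG change of Slpi gave a difference between tissues of -3.50 (SE 1.14, adjusted p = 1.0). Treated retina was above aged retina in all 3 libraries, and treated RPE/choroid overlapped aged RPE/choroid. Of these libraries only the 3 of treated retina are labelled total RNA, so that label and this difference cannot be told apart. Treated retina held 29 Slpi reads and aged retina 4.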

How the results depend on the processing

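Members called changed as follows outside the fits that left out a library. In aged against young retina, 3 became 4 with DESeq2 (with S100a9 and Ubd, without Ngp), and without the filter and with all 3 groups in 1 fit (with S100a9). In treated against aged retina, 0 became 2 with DESeq2 and 1 without the filter. In treated against young retina, 3 became 5 with DESeq2 (without Ngp), 6 without the filter and 4 with all 3 groups in 1 fit. In aged against young RPE/choroid, 5 became 2 with all 3 groups in 1 fit, 4 with the replicate block (without Chi3l1) and with a mean CPM of at least 1 (without Camp), and 6 with DESeq2 and without the filter (with Reg3g). With libraries of a shared label number summed the count stayed at 5, with Reg3g in place of Camp. In treated against aged RPE/choroid, 1 became 2 with DESeq2. In treated against young RPE/choroid, 1 became 2 with DESeq2 and 0 with all 3 groups in 1 fit, with the replicate block and with libraries of a shared label number summed. With treated RPE/choroid libraries 1 and 3 both left out, an alternative chosen after seeing the data that leaves 1 treated library, treated against aged still had 1 member called, Ngp instead of Ubd, and treated against young had 0. Directions turned for S100a8 (-1.57), S100a9 (-1.12), Lcn2 (-0.61) and Ngp (-2.83) in treated against aged. The causes were not tested. Replicate numbers did not pair the samples: same-numbered libraries correlated from -0.32 to 0.25 in retina and from -0.65 to 0.74 in RPE/choroid. With the replicate block, 2 members instead of 1 passed in the aging interaction, and in treated against aged RPE/choroid S100a8 gave -1.11, S100a9 -0.66 and Ngp -0.046. In the aging comparison of RPE/choroid, genes called went from 115 higher and 102 lower to 74 higher and 64 lower with the block. Both counts were also lower in 1 fit of all groups and with a mean CPM of at least 1. Both were higher with DESeq2 and without the filter. In treated against aged RPE/choroid, both rose with DESeq2. In treated against young RPE/choroid, both fell with the block and with summed libraries, and rose with DESeq2 and with 1 fit. In retina, both rose without the filter in every comparison, and with DESeq2 they moved in opposite directions. A change in members called need not be particular to members.

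Leaving out each library in turn, members called ranged from 2 to 4 (aged against young), 0 to 2 (treated against aged) and 2 to 5 (treated against young) in retina, and from 3 to 5, 1 to 3 and 0 to 2 in RPE/choroid. Members passing the interaction test ranged from 1 to 2 for aging and from 1 to 3 for 8-AG. Log2 fold changes that changed sign ranged, in treated against aged retina, from -0.36 to 0.24 for Ngp and from -0.14 to 0.20 for Chi3l1. Lcn2 in aged against young RPE/choroid ranged from -0.22 to 1.34. In treated against aged RPE/choroid, the ranges were -2.29 to 0.72 for S100a8, -1.74 to 0.87 for S100a9, -1.16 to 2.05 for Ngp and -1.83 to 0.38 for Chi3l1. The lower bound of the S100a9 fold in retina was recomputed with each library left out, an alternative chosen after seeing the data, and ranged from 3.12 to 10.5 (aged against young) and from 9.79 to 18.1 (treated against young). Depth limits Camp, Reg3g and Mpo in retina, where no group held more than 3 reads of any of them.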
